A study of Mus musculus with 8 samples.

Results

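The genes described here are 45 mouse genes of the interferon response, among them the guanylate-binding protein (Gbp) genes. Each was taken from the deposited expression table by its gene name, and 44 of the 45 had a row of their own among the 45232 rows of the table. Gbp6 had no row under its plain name but had 2 numbered rows, Gbp6_1 and Gbp6_2, which were kept apart from every count. All 44 had at least 1 TPM in at least 2 libraries and were tested, as were 13376 rows in all. By role the 44 comprised 10 Ifit, Oas and Mx genes, 12 other antiviral effectors, 3 sensors of viral RNA, 4 transcription factors, 12 Gbp and immunity-related GTPase genes, and 3 genes of antigen processing.

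The libraries were made from sorted CD4+ CD25+ T cells, a gate that regulatory T cells fill in large part, with at least 500 cells each. The 4 groups were Id2-deficient cells from visceral adipose tissue (KO adipose), wild-type cells from the same tissue (WT adipose), Id2-deficient spleen cells (KO spleen) and wild-type spleen cells (WT spleen), all on the C57BL/6 strain and with 2 libraries each, numbered 2 and 3. The KO genotype is given as Id2 CKO. The sources used here do not give the cells that lost Id2, the driver or the age of the mice. The labels do not say that a group's libraries are of different mice, and every p-value below is against a library-to-library spread that may be technical. Values are TPM, a share of all transcripts corrected for length. The unit holds no information on depth, which is unknown, and genes at 0 are called listed at 0.

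The libraries did not match in content. Genes above 0 numbered 13184 in KO adipose 2 and 20684 in KO adipose 3, with the other 6 libraries between these. All 7 T cell markers were present in every library, and their summed level was lowest in KO adipose 3 (3774 TPM, against 7340 to 11689 TPM in the other 7). Foxp3, which defines regulatory T cells, was low in 2 libraries, KO adipose 2 (7.4 TPM) and KO spleen 2 (8.27 TPM), against 93.5 to 266 TPM in the other 6. Other regulatory T cell markers did not all follow Foxp3. Summed over 5 such markers, Foxp3 among them, KO adipose 2 was the highest adipose library (1703 TPM, the rest 888 to 1637 TPM). There Tnfrsf18 was the highest of the adipose libraries (1352 TPM) and Il2ra the lowest (33.8 TPM). By the same sum KO spleen 2 was the lowest spleen library (1597 TPM, the rest 1778 to 2160 TPM). Tnfrsf18 made up most of the sum in every library, with 1234 TPM in KO spleen 2. Foxp3, Il2ra (71.8 TPM), Ctla4 (210 TPM) and Ikzf2 (73.5 TPM) were each lowest there among the spleen libraries. The 10 macrophage markers summed to 11164 TPM in KO adipose 3 and were all above 0 there. In KO adipose 2 the macrophage sum was 15.8 TPM with 4 of 10 at 0, in WT adipose tissue 9.41 and 21.0 TPM with 5 and 4 at 0, in KO spleen 13.3 and 104 TPM, and in WT spleen 614 and 156 TPM. Fibroblast and mesothelium markers summed to 746 and 3624 TPM in the KO adipose libraries and to at most 4.76 TPM in every other library. Erythroid markers, of which 3 of 5 had a row, summed to 6858 and 8329 TPM in KO adipose 2 and 3, against 20.0 and 711 TPM in WT adipose 2 and 3. Their sum in spleen was 187 and 13380 TPM for KO and 2193 and 5207 TPM for WT. The fibroblast and mesothelium and the erythroid sums thus separated KO from WT adipose tissue without overlap. The targeted gene Id2 was at 1499 and 1298 TPM in the KO adipose libraries against 2249 and 3679 TPM in the WT adipose libraries, and at 72.1 and 265 TPM in the KO spleen libraries against 274 and 346 TPM in the WT spleen libraries. Neither difference passed the limma test described below, with an adjusted p of 0.751 for adipose tissue and 1 for spleen. In such bulk samples fewer cells of a type and less RNA per cell cannot be told apart.

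Interferons are cytokines that switch on antiviral and antimicrobial genes. Type I interferons (alpha and beta) act through a complex with STAT2 and IRF9 that binds the interferon-stimulated response element (ISRE), and induce genes such as the Ifit, Oas and Mx families. Interferon-gamma, made by T cells and natural killer cells, acts in part through the gamma-activated site (GAS), a promoter element, and induces the Gbp genes and the immunity-related GTPases (Irgm1, Irgm2, Igtp, Iigp1), which act on membranes around intracellular pathogens. Many of these genes respond to both kinds of interferon.

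The promoters of the members are shown because the binding letters of these factors are what the type I and the gamma-type genes are usually told apart by. In RefSeq promoters of GRCm38.p6, the 250 bases before the start site were searched on both strands for the ISRE core GAAANNGAAA (TTTCNNTTTC on the other strand) and for the GAS core TTCNNNGAA, which is its own reverse complement. Overlapping matches were allowed, and the 2 cores can share bases. A promoter was found for 31 of the 45 members, among 27025 genes with a promoter in that set. The capitals mark the match, with up to 15 bases on each side, 5′ to 3′ on the strand of the gene. The first 4 lines are from Isg15, Ifit1, Ifit3 and Rsad2, the next 3 from Gbp2 and the immunity-related GTPase genes Igtp and Irgm2, and the last 2 are GAS matches of Gbp7 and Irf1.
Isg15 ISRE, chr4:156200866-156200905, minus strand: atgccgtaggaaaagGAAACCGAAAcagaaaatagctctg
Ifit1 ISRE, chr19:34640789-34640828, plus strand: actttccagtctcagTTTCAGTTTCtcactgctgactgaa
Ifit3 ISRE, chr19:34583392-34583431, plus strand: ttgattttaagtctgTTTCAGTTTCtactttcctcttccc
Rsad2 ISRE, chr12:26456548-26456587, minus strand: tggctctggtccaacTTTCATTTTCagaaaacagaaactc
Gbp2 ISRE, chr3:142620589-142620628, plus strand: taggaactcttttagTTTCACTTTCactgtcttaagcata
Igtp ISRE, chr11:58199507-58199546, plus strand: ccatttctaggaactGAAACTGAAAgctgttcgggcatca
Irgm2 ISRE, chr11:58214898-58214937, plus strand: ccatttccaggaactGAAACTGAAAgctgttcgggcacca
Gbp7 GAS, chr3:142530215-142530253, plus strand: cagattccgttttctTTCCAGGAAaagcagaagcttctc
Irf1 GAS, chr11:53769909-53769947, plus strand: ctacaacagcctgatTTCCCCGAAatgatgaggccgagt

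The ISRE core was found in 15 of the 31 member promoters (48.4%), against 3.46% of the 27025, and the GAS core in 10 (32.3%), against 8.13%. Both cores stood in 6 member promoters (19.4%), against 0.459% of all. Of the 7 Gbp and immunity-related GTPase promoters, 7 held the ISRE core and 4 the GAS core. Of the 7 Ifit, Oas and Mx promoters, 4 held the ISRE core and 2 the GAS core. Both cores stood in 4 of the 7 gamma-type promoters and in 1 of the 7 type I promoters. The ISRE core was thus not particular to the type I genes, being at least as frequent in the gamma-type promoters. With 7 promoters in each class, no difference between the classes was tested. A match is a description of letters, not a binding site. Gbp4, Gbp6, Gbp8, Gbp9 and Gbp10, which sit on chromosome 5, had no promoter entry.

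Levels of the members spanned a wide range. The immunoproteasome gene Psmb8 was the highest, at 518 to 1243 TPM over the 8 libraries, followed by the GTPase gene Igtp at 135 to 538 TPM. Bst2, which encodes the virus-tethering protein tetherin, lay at 122 to 323 TPM, and Ifi35 at 151 to 219 TPM. At the low end, Mx1 and Mx2, which encode antiviral dynamin-like GTPases, were at most 6.38 and 3.17 TPM and listed at 0 in KO adipose 2 and WT adipose 3. Between 39 members (KO adipose 2) and 44 members (KO adipose 3 and all spleen libraries) were above 0. In every library the median level of the 12 Gbp and immunity-related GTPase genes exceeded that of the 10 Ifit, Oas and Mx genes.

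**Figure D1:**
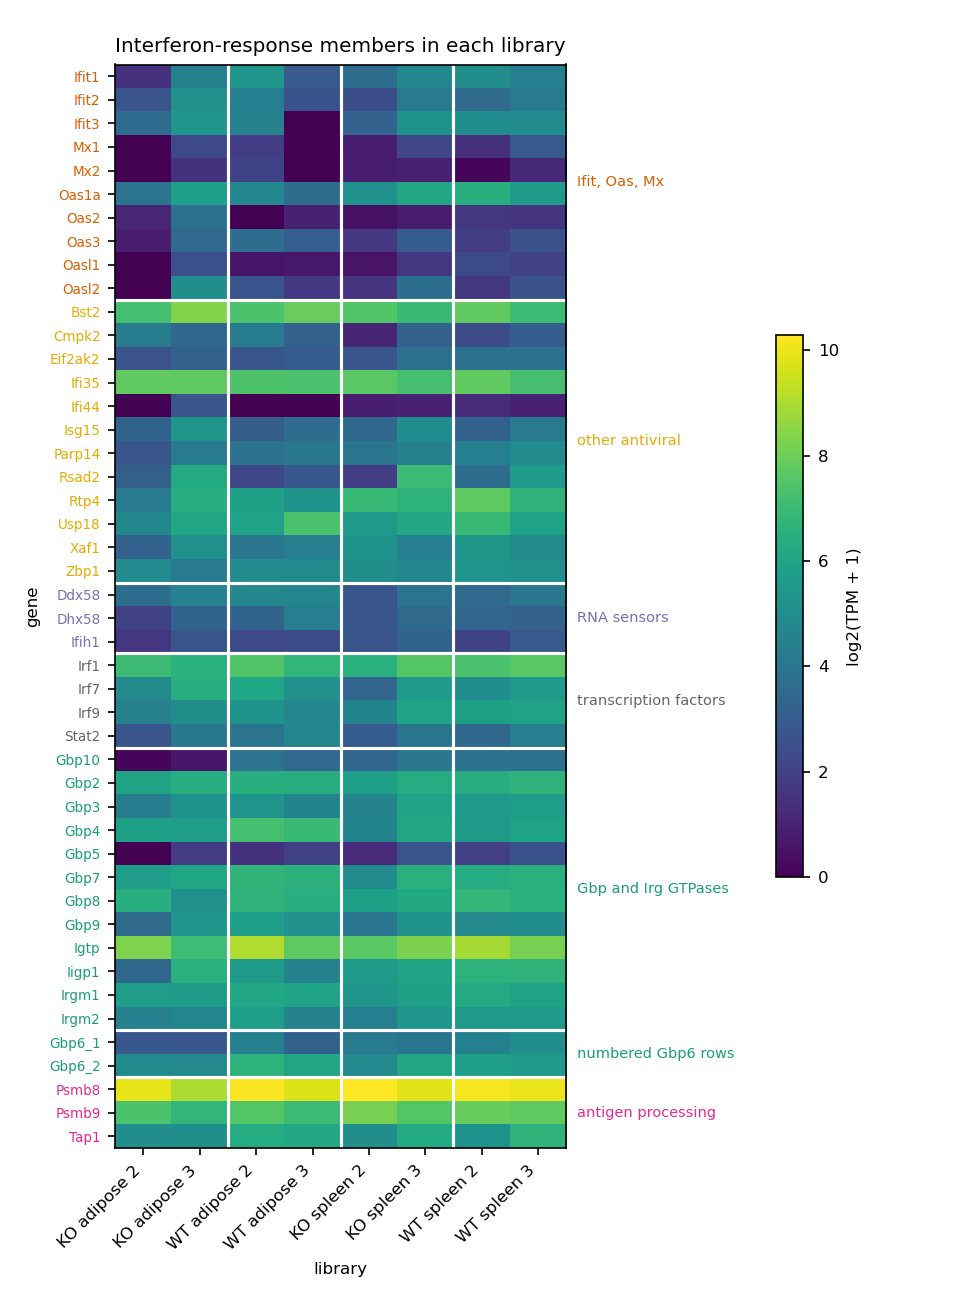
Level of each of the 44 members and the 2 numbered Gbp6 rows, as log2(TPM + 1), in the 8 libraries, with genes grouped by role. Most of the Gbp and immunity-related GTPase block is bright in every library, whereas the Ifit, Oas and Mx block is darkest in KO adipose 2 and WT adipose 3. Within the GTPase block Gbp5 and Gbp10 are darker than most. Gbp10 is darkest in the 2 KO adipose libraries, and Gbp9 and Iigp1 are darkest in KO adipose 2.

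Groups were compared on log2(TPM + 1) with limma, p-values being adjusted by the Benjamini-Hochberg method over the 13376 genes tested, at a threshold of 0.05. Between KO and WT adipose tissue 0 of the 44 members passed, where 0.284% of all genes did, and 2 (Gbp10 and Gbp4) had an unadjusted p under 0.05, where 6.97% of all genes did. For KO against WT spleen 0 of the 44 passed, where 0% of all genes did, and 0 had an unadjusted p under 0.05, where 0.478% of all genes did. In WT adipose tissue against WT spleen 0 of the 44 passed, where 0.164% of all genes did, and 3 (Gbp4, Oas1a and Rtp4) had an unadjusted p under 0.05, where 13% of all genes did. In KO adipose tissue against KO spleen 1 member passed, Gbp10, lower in adipose tissue, where 1.08% of all genes passed and 0.15% passed as lower. It was also the 1 member with an unadjusted p under 0.05, where 12.9% of all genes had one. For the genotype by tissue interaction 0 of the 44 passed, where 0.0299% of all genes did, and 2 (Gbp10 and Oas2) had an unadjusted p under 0.05, where 3.06% of all genes did. A p that misses the threshold does not show that the groups were alike.

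Gbp10, a large GTPase induced by interferon-gamma, had the largest fold change of any member between KO and WT adipose tissue. It was at 0.103 and 0.530 TPM in the KO adipose libraries, against 14.0 and 10.5 TPM in the WT adipose libraries. Spleen values were 9.12 and 15.9 TPM in the KO libraries against 13.7 and 12.9 TPM in the WT libraries. Both KO adipose libraries were thus near 0, while the other 6 libraries lay close together and did not separate by genotype in spleen. In KO adipose tissue against KO spleen Gbp10 fell by 3.33 on the log2 scale (SE 0.52, limma adjusted p = 0.0334), lower in 2 of 2 libraries. The call ended with a pseudocount of 5 (limma adjusted p = 0.0897), without a filter on low values (0.0857), with the 4 KO libraries alone (0.126) and without both KO libraries of experiment 2 (0.0732). It also ended without WT adipose 2 (0.0597), and when any 1 spleen library was left out: KO 2 (0.195), KO 3 (0.140), WT 2 (0.109) or WT 3 (0.109).

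For KO against WT adipose tissue the log2 fold change of Gbp10 was -3.34 (SE 0.52), which did not pass over all genes (limma adjusted p = 0.0601). It passed when the variance was fitted without a trend (adjusted p = 0.0320) and without KO adipose 2 (-3.11, adjusted p = 0.0413). The value without KO adipose 2 rests on KO adipose 3 alone, which is assumed to vary like the other groups. Within the numbered experiments, the KO minus WT difference of Gbp10 was -3.77 in experiment 2 and -2.91 in experiment 3, so it was large in both. The log2 fold change in spleen was -0.13 (SE 0.52, adjusted p = 1). The test of the difference between tissues gave -3.21 (SE 0.74) and did not pass (limma adjusted p = 0.510). Both KO adipose libraries, in which Gbp10 was low, also had the high fibroblast and mesothelium sums (746 and 3624 TPM) and erythroid sums (6858 and 8329 TPM), while their macrophage sums differed (15.8 and 11164 TPM). The part of other cells in the Gbp10 values was not tested.

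The value of Gbp10 rests on a gene with a near-identical neighbour, Gbp6, which is why both coding sequences are shown. In GENCODE M21 (GRCm38) both lie on the minus strand of chromosome 5 and have coding sequences of 1833 bases, which aligned without a gap and differed at 30 positions (98.4% identity). Of all 50-base windows of the Gbp10 transcripts, 73.3% occurred in Gbp6 transcripts, and 45.9% of those of Gbp6 occurred in Gbp10. The 120 coding bases with the most differences, 1526 to 1645 of each coding sequence, are given 5′ to 3′, with the 12 differing bases in capitals.
Gbp10: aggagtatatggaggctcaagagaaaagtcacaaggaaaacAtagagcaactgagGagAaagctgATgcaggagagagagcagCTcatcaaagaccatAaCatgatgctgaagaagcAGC
Gbp6: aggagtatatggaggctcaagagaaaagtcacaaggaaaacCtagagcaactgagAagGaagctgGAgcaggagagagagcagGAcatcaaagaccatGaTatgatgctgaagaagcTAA
The sources used here do not say how reads shared by both genes were assigned, so the split between Gbp10 and Gbp6 is uncertain. Both numbered Gbp6 rows were also lower in KO than in WT adipose tissue. Gbp6_1 was at 6.14 and 5.89 TPM in the KO adipose libraries against 22.1 and 8.12 TPM in the WT adipose libraries (log2 fold change -1.05, SE 0.53, limma adjusted p = 0.748). Gbp6_2 was at 29.8 and 27.8 TPM in the KO libraries against 99.5 and 65.1 TPM in the WT libraries (-1.45, SE 0.44, limma adjusted p = 0.463). In spleen Gbp6_1 was at 17.5 and 15 TPM in the KO libraries against 22.2 and 31.9 TPM in the WT libraries, and Gbp6_2 at 29.2 and 66.4 TPM in the KO libraries against 55.0 and 48.6 TPM in the WT libraries. For both rows the KO adipose libraries lay below the WT adipose libraries without overlap, and neither difference passed the test. In spleen Gbp6_1 also lay lower in KO without overlap and did not pass, whereas Gbp6_2 overlapped.

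**Figure D2:**
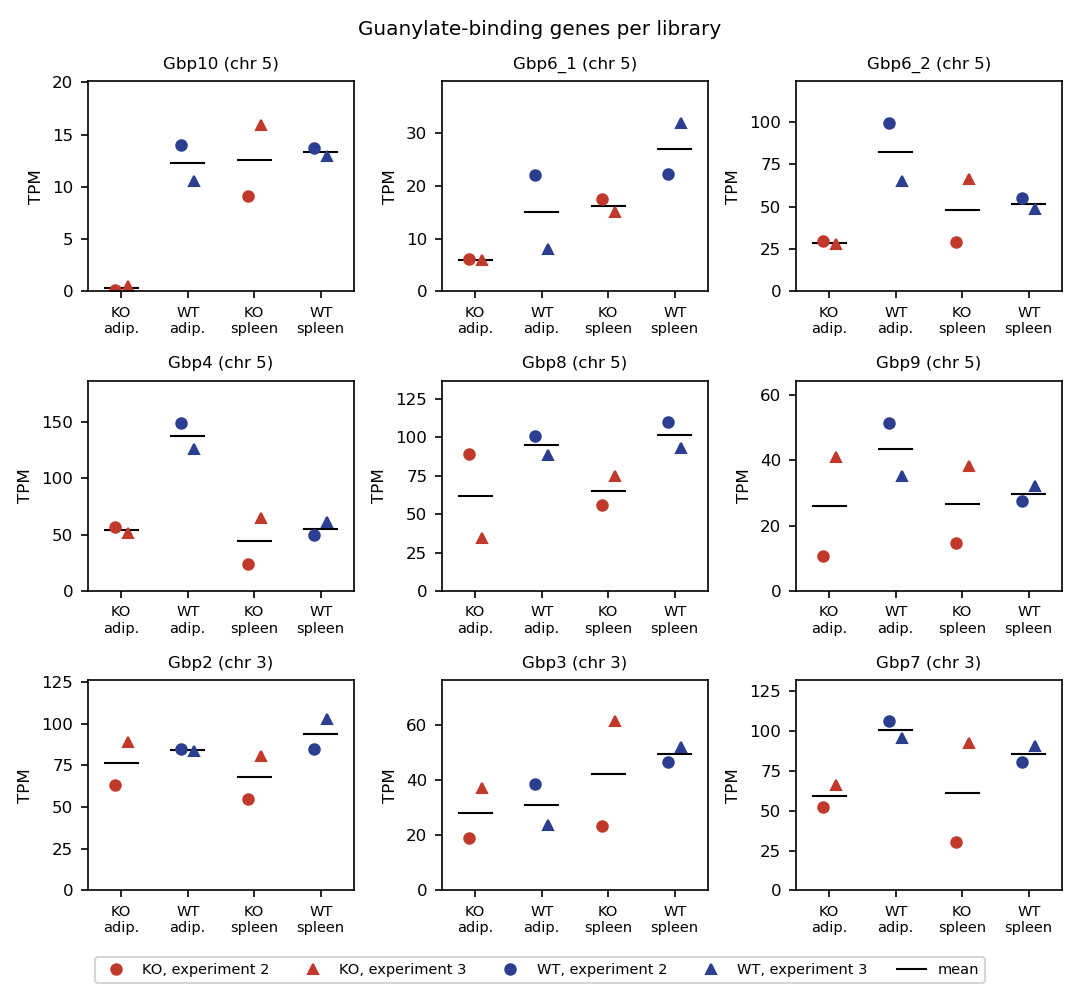
TPM of 9 guanylate-binding rows in each library (circles experiment 2, triangles experiment 3, red KO, blue WT, lines group means), with the KO group left of the WT group in each tissue. Gbp10 lies below 1 TPM in both KO adipose libraries and at 9.12 TPM or above in the other 6, and Gbp4, Gbp6_1, Gbp6_2 and Gbp7 also lie lower in both KO than in both WT adipose libraries.

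The other guanylate-binding genes, which encode GTPases that assemble on pathogen membranes, had smaller fold changes between KO and WT adipose tissue. Gbp4 was at 56.8 and 51.4 TPM in the KO adipose libraries, against 149 and 126 TPM in the WT adipose libraries. Its KO adipose libraries lay at the level of the spleen, where it was at 23.8 and 65.1 TPM in the KO libraries and 49.8 and 61.0 TPM in the WT libraries. WT adipose tissue was thus the group that stood apart for Gbp4. For KO against WT adipose tissue the log2 fold change was -1.33 (SE 0.46, limma adjusted p = 0.575), and that of WT adipose tissue against WT spleen was 1.30 (SE 0.46, adjusted p = 0.316). Gbp7 was at 52.1 and 66.3 TPM in the KO libraries against 106 and 95.5 TPM in the WT adipose libraries, and at 30.5 and 92.1 TPM in the KO libraries against 80.7 and 90.7 TPM in the WT spleen libraries. Its groups did not overlap in adipose tissue and overlapped in spleen (log2 fold change -0.77 and -0.68, limma adjusted p = 0.763 and 1).

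Gbp2, Gbp3, Gbp8 and Gbp9 overlapped between KO and WT adipose tissue. Gbp2 was at 63.0 and 89.1 TPM in the KO libraries against 85.0 and 83.4 TPM in the WT adipose libraries, and at 54.9 and 80.5 TPM in the KO libraries against 84.7 and 103 TPM in the WT spleen libraries. Gbp8 was at 89.2 and 34.7 TPM in the KO libraries against 101 and 88.7 TPM in the WT adipose libraries, and at 56.0 and 74.7 TPM in the KO libraries against 110.2 and 93.2 TPM in the WT spleen libraries. In spleen both KO libraries of Gbp2 and Gbp8 lay below both WT libraries, and neither passed the test. Gbp3 ranged from 19.0 to 61.5 TPM and Gbp9 from 10.7 to 51.6 TPM over the 8 libraries, and both were higher in library 3 than in library 2 of each KO group. Gbp5, which promotes inflammasome assembly, was at most 5.49 TPM and listed at 0 in KO adipose 2.

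Of the immunity-related GTPase genes, Irgm1, which regulates the other members of its family, was at 52.8 and 50.9 TPM in the KO libraries against 70.6 and 61.2 TPM in the WT adipose libraries. In spleen Irgm1 was at 40.6 and 56.4 TPM in the KO libraries against 77.7 and 61.8 TPM in the WT libraries. The KO libraries lay below both WT libraries in both tissues for Irgm1 and for the numbered row Gbp6_1, which was kept apart from counts. Among the 12 Gbp and immunity-related GTPase genes Irgm1 was the only one with this pattern. Its log2 fold change was -0.34 for adipose tissue and -0.53 for spleen (SE 0.33 each), and neither passed (limma adjusted p = 0.815 and 1). Irgm2 was at 21.5 and 25.1 TPM in the KO libraries against 53.5 and 23.5 TPM in the WT adipose libraries, and at 20.4 and 41.6 TPM in the KO libraries against 45.4 and 45.7 TPM in the WT spleen libraries. Igtp was at 316 and 135 TPM in the KO libraries against 538 and 212 TPM in the WT adipose libraries, and at 200.2 and 305 TPM in the KO libraries against 475 and 286 TPM in the WT spleen libraries. For Igtp the 2 adipose groups overlapped, and within each adipose group library 2 was the higher. Iigp1 was at 10.03 and 90.8 TPM in the KO libraries against 50.7 and 22.4 TPM in the WT adipose libraries, where the 2 experiments went opposite ways. In spleen Iigp1 was at 47.4 and 63.6 TPM in the KO libraries against 100.01 and 102 TPM in the WT libraries (-0.87, SE 0.87, limma adjusted p = 1).

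Over the 12 Gbp and immunity-related GTPase genes, 12 had a negative fold change in KO against WT adipose tissue, where 67.7% of all genes did, and 12 in KO against WT spleen, where 63.5% did. The median log2 fold change was -0.73 in adipose tissue, against -0.27 over all genes, and -0.50 in spleen, against -0.12. After quantile normalization, which moved the median of all genes to -0.089 and 0.0024, 9 and 11 of the 12 were negative. Without KO adipose 2 the adipose count was 8 of 12, and without KO spleen 2 the spleen count was 6 of 12 (median -0.01). By position, the 6 rows on chromosome 5 (Gbp8, Gbp9, Gbp4, Gbp10 and both Gbp6 rows) had a median of -1.19 in adipose tissue, the 4 genes on chromosome 3 (Gbp5, Gbp7, Gbp3, Gbp2) -0.47 and the 3 genes on chromosome 11 (Irgm1, Igtp, Irgm2) -0.59. In spleen these medians were -0.39, -0.43 and -0.58. The chromosome 5 rows are neighbours of related sequence, so they are not independent.

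The Ifit, Oas and Mx genes varied widely between the libraries of a group. Ifit1, which binds viral RNA lacking the host cap mark, was at 1.80 and 21.8 TPM in the KO libraries against 38.6 and 6.73 TPM in the WT adipose libraries. Ifit3 was at 11 and 41.5 TPM in the KO libraries against 21.0 and 0 TPM in the WT adipose libraries, and Ifit2 at 5.53 and 36.2 TPM in the KO libraries against 20.8 and 5.05 TPM in the WT libraries. In all 3 the high libraries were KO adipose 3 and WT adipose 2, so the genotypes overlapped, and differed in opposite directions in the 2 experiments. In spleen Ifit1 was at 11.7 and 27.1 TPM in the KO libraries against 33.0 and 20.7 TPM in the WT libraries, Ifit2 at 4.57 and 18.3 TPM against 10.7 and 17.6 TPM, and Ifit3 at 8.31 and 37.4 TPM against 31.2 and 29.8 TPM. The low spleen library was KO spleen 2 in each.

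The Oas genes encode enzymes that make 2-5A, the activator of RNase L, and the Oas-like genes encode relatives of them. Oas2 was at 1.13 and 12.7 TPM in the KO libraries against 0.00950 and 0.943 TPM in the WT adipose libraries, and at 0.372 and 0.784 TPM in the KO libraries against 2.16 and 1.90 TPM in the WT spleen libraries. Both KO libraries thus lay above WT in adipose tissue and below WT in spleen. Its log2 fold change was 1.94 for adipose tissue and -0.95 for spleen (SE 0.86 each), and neither passed (limma adjusted p = 0.730 and 1). The interaction, 2.90 (SE 1.22), did not pass either (limma adjusted p = 1). Without KO adipose 2 the adipose value was 3.29 (limma adjusted p = 0.0459) and the KO adipose against KO spleen value 3.13 (adjusted p = 0.0290), which rest on KO adipose 3 alone, the library with the high macrophage markers, with the spread taken from the other groups. The part of other cells in the Oas2 values was not tested. Oas1a was at 14.3 and 54.1 TPM in the KO libraries against 26.5 and 11.8 TPM in the WT adipose libraries, below its level in WT spleen (87.8 and 50.1 TPM) in both WT adipose libraries (log2 fold change of WT adipose tissue against WT spleen -1.84, SE 0.68, limma adjusted p = 0.326). Oas3 was at 0.705 and 10.3 TPM in the KO libraries against 11.6 and 7.32 TPM in the WT adipose libraries. Oasl2 was at 0 and 33.0 TPM in the KO libraries against 5.58 and 2.38 TPM in the WT adipose libraries, and Oasl1 at 0 and 4.73 TPM against 0.486 and 0.596 TPM. For all of these but Oas2 the 2 KO adipose libraries lay on either side of the WT libraries or overlapped with them.

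Among the other antiviral genes, Rsad2, which encodes the antiviral enzyme viperin, varied widely. It was at 7.68 and 76.7 TPM in the KO libraries against 3.67 and 5.94 TPM in the WT adipose libraries, and at 2.61 and 128 TPM in the KO libraries against 11.7 and 48.7 TPM in the WT spleen libraries. Both KO adipose libraries lay above WT, but the 2 KO adipose libraries lay far apart (log2 fold change 2.19, SE 1.62, limma adjusted p = 0.784). Isg15, a ubiquitin-like modifier, was at 8.96 and 42.8 TPM in the KO libraries against 7.27 and 11.9 TPM in the WT adipose libraries, and at 9.98 and 30.7 TPM in the KO libraries against 8.13 and 18.2 TPM in the WT spleen libraries. Isg15 was higher in library 3 than in library 2 in all 4 groups, so the genotypes overlapped in both tissues when the experiments were pooled. Within experiments 2 and 3 its KO minus WT log2 difference was positive each time, at 0.27 and 1.76 in adipose tissue and 0.27 and 0.72 in spleen. Its remover Usp18 was at 26.9 and 68.6 TPM in the KO libraries against 59.4 and 158 TPM in the WT adipose libraries (-1.15, SE 0.62, limma adjusted p = 0.748). Ifi44 was at 0.00654 and 5.62 TPM in the KO adipose libraries and listed at 0 in both WT adipose libraries. Ifi35 was at 217 and 212 TPM in the KO libraries against 171 and 158 TPM in the WT adipose libraries (0.38, SE 0.31, limma adjusted p = 0.798), without overlap and with a small spread.

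Rtp4, a chaperone-like protein of the antiviral response, was at 58.7 and 37.0 TPM in the WT adipose libraries against 210.1 and 102 TPM in the WT spleen libraries (log2 fold change -1.63, SE 0.69, limma adjusted p = 0.372). In KO it was at 18.1 and 86.7 TPM in its adipose libraries against 124 and 98.3 TPM in spleen (-1.45, SE 0.69, limma adjusted p = 0.438). Rtp4 thus lay below spleen in every adipose library, in both genotypes. Eif2ak2, the kinase PKR that halts translation on viral RNA, was at 5.77 and 12.8 TPM in the KO libraries against 13.8 and 13.8 TPM in the WT spleen libraries, and at 5.23 and 7.93 TPM in the KO libraries against 5.82 and 6.98 TPM in the WT adipose libraries. Cmpk2, a mitochondrial nucleotide kinase, ran the other way by tissue, at 18.9 and 9.73 TPM in the KO adipose libraries against 1.08 and 7.97 TPM in the KO spleen libraries (1.76, SE 0.78, limma adjusted p = 0.397), and at 17.5 and 8.12 TPM in the WT adipose libraries against 4.29 and 7.01 TPM in the WT spleen libraries. Zbp1, a sensor of Z-form nucleic acids, stayed within 18.1 to 38.5 TPM, Parp14 within 5.67 to 30.5 TPM and Xaf1 within 8.47 to 43.1 TPM over the 8 libraries.

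Of the 3 sensors of viral RNA, 2 lay lower in both KO than in both WT adipose libraries, where 27.5% of all genes did. Ddx58, which encodes RIG-I, was at 12.1 and 22.7 TPM in the KO libraries against 26.2 and 25.5 TPM in the WT adipose libraries. Dhx58, which encodes LGP2, was at 2.91 and 8.65 TPM in the KO libraries against 8.72 and 20.1 TPM in the WT adipose libraries. For both, the higher KO library lay just below the lower WT library, and neither passed (log2 fold change -0.61 and -1.22, limma adjusted p = 0.805 and 0.748). Ifih1, which encodes MDA5, was at 2.13 and 5.38 TPM in the KO libraries against 3.77 and 4.03 TPM in the WT adipose libraries, with overlap. Of the transcription factors, Stat2 and Irf9 are partners in the complex that binds the ISRE. Stat2 was at 5.53 and 16.9 TPM in the KO adipose libraries against 14.4 and 26.7 TPM in the WT adipose libraries, and Irf9 at 21.3 and 32.8 TPM against 38.4 and 26.1 TPM, with overlap in both. Within experiments 2 and 3 Stat2 had negative KO minus WT log2 differences each time, -1.23 and -0.63 in adipose tissue and -0.47 and -0.41 in spleen. Irf7, the amplifier of type I interferon production, was at 29.4 and 86.2 TPM in the KO libraries against 66.1 and 35.6 TPM in the WT adipose libraries, the same crossing of the experiments as in the Ifit genes. Irf1, a first-wave target of interferon-gamma, was at 132 and 94.1 TPM in the KO libraries against 179 and 108 TPM in the WT adipose libraries. Over the 5 comparisons 0 of the 4 factors passed.

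Tap1, which encodes a subunit of the peptide transporter, was at 32.9 and 34.1 TPM in the KO libraries against 81.9 and 73.8 TPM in the WT adipose libraries, the clearest separation among the antigen processing genes (log2 fold change -1.19, SE 0.55, limma adjusted p = 0.740). In spleen Tap1 was at 32.4 and 76.0 TPM in the KO libraries against 36.7 and 103 TPM in the WT libraries, and the SE is shared over all 4 groups. The immunoproteasome genes Psmb8 and Psmb9 overlapped between genotypes. Psmb8 was at 955 and 518 TPM in the KO libraries against 1198 and 828 TPM in the WT adipose libraries, and Psmb9 at 164 and 108 TPM against 182 and 129 TPM. In both experiments the KO adipose library was the lower of its pair for all 3 genes, where 43.1% of all genes were lower in both.

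Counted over the 44 members, the KO libraries lay above the WT libraries without overlap for 4 in adipose tissue (Ifi35, Ifi44, Oas2 and Rsad2), where 7.66% of all genes did. They lay below for 7 (Ddx58, Dhx58, Gbp10, Gbp4, Gbp7, Irgm1 and Tap1), where 27.5% of all genes did. In spleen the KO libraries lay above for 0 members, where 5.93% of all genes did, and below for 9 (Eif2ak2, Gbp2, Gbp8, Iigp1, Irgm1, Irgm2, Oas2, Oasl1 and Zbp1), where 13.9% did. The shares of members were not tested against those of all genes. For WT adipose tissue against WT spleen, 6 members lay above (Cmpk2, Ddx58, Gbp4, Gbp7, Gbp9 and Oas3), where 37.8% of all genes did, and 15 below, where 15.1% did. The 15 comprised 4 Ifit, Oas and Mx genes, 7 other antiviral genes, Gbp3, Iigp1, Irf9 and Psmb9. For KO adipose tissue against KO spleen, 3 members lay above (Cmpk2, Ifi35 and Oas2; 22.1% of all genes) and 4 below (Gbp10, Ifih1, Psmb9 and Rtp4; 14.6%).

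Between tissues in WT, the median of the members had the opposite sign to that of all genes. Of the 44, 30 had a negative fold change for WT adipose tissue against WT spleen, where 34.5% of all genes did, with a median of -0.25 against 0.32 over all genes. In experiment 2 the member median was -0.10 (23 of 44 negative), against 0.37 over all genes. In experiment 3 it was -0.56 (33 of 44 negative), against 0.21. Quantile normalization moved the all-gene median to -0.0033, so the fold changes are read against it. The lowest were Ifit3 (-2.75, SE 1.35, limma adjusted p = 0.427), Rsad2 (-2.14, SE 1.62, adjusted p = 0.595) and Oas1a, and the highest was Gbp4. In KO, 28 of 44 were negative for adipose tissue against spleen, where 41.4% of all genes were, with a median of -0.21 against 0.16 over all genes. These 2 comparisons share no library.

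The type I set (the 10 Ifit, Oas and Mx genes) and the gamma-type set (the 12 Gbp and immunity-related GTPase genes) had different patterns over libraries. The median level on the log2(TPM + 1) scale was 0.93 and 4.14 for the type I set in KO adipose 2 and 3, and 3.19 and 1.36 in WT adipose 2 and 3. The spleen values were 1.61 and 3.35 in KO and 2.09 and 2.71 in WT. For the gamma-type set it was 5.11 and 5.55 in KO adipose tissue, 5.96 and 5.57 in WT adipose tissue, 4.81 and 5.99 in KO spleen and 5.98 and 5.96 in WT spleen. The median of the type I set thus varied widely from library to library. That of the gamma-type set varied less and was lowest in KO spleen 2 (4.81) and KO adipose 2 (5.11). The median absolute log2 difference between the 2 libraries of a group was 2.51 in KO adipose tissue, 1.48 in WT adipose tissue, 1.22 in KO spleen and 0.67 in WT spleen for type I genes. For gamma-type genes it was 0.71, 0.43, 0.87 and 0.22 in the same groups, and over all genes 0.72, 0.50, 0.62 and 0.45. Gene by gene, the gamma-type set thus varied about as much as all genes in KO adipose tissue and more in KO spleen. The highest type I level was in KO adipose 3, the library with the macrophage sum of 11164 TPM, and the lowest in KO adipose 2. The other libraries did not follow the macrophage sum in order. WT adipose 2, with the lowest sum (9.41 TPM), had a type I level of 3.19, and WT spleen 2, with 614 TPM, had 2.09. The part of other cells in these levels was not tested.

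**Figure D3:**
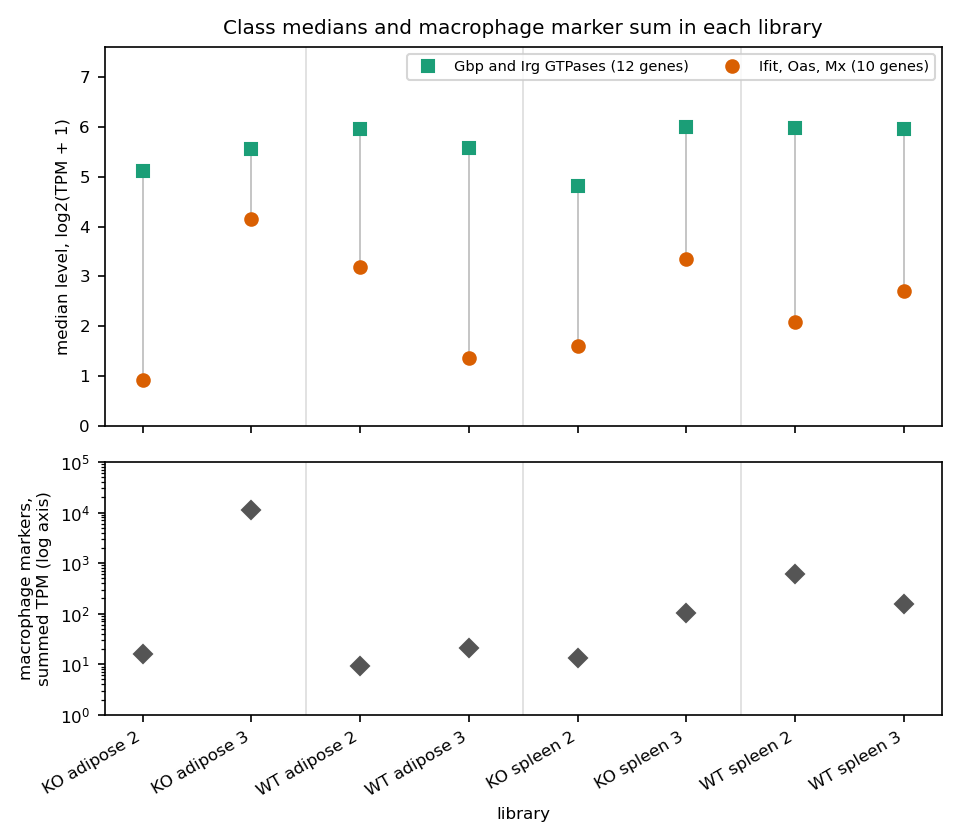
Median log2(TPM + 1) of the 12 Gbp and immunity-related GTPase genes (squares) and the 10 Ifit, Oas and Mx genes (circles) in each library, above the summed TPM of 10 macrophage markers (log axis). The squares stay between 4.81 and 5.99 while the circles run from 0.93 to 4.14, with the highest circle in the library of the highest macrophage sum. WT adipose 2, the library of the lowest macrophage sum, has its circle at 3.19.

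In KO against WT adipose tissue the median log2 fold change was 0.37 for the type I set and -0.73 for the gamma-type set, a difference of 1.10. Leaving out KO adipose 3 turned the type I median to -0.87 (8 of 10 negative) and the difference to -0.055, whereas leaving out KO adipose 2 gave a type I median of 1.63 with 0 of 10 negative. Leaving out WT adipose 3 gave a type I median of -0.33. For KO against WT spleen both sets had similar medians, -0.52 and -0.50, with a difference of -0.01. For WT adipose tissue against WT spleen the medians were -0.87 and -0.13, and for KO adipose tissue against KO spleen -0.10 and -0.23. These tissue differences turned between experiments 2 and 3. The type I medians were 0.33 and -1.40 in WT and -0.83 and 0.56 in KO. The gamma-type medians were 0.016 and -0.28 in WT and 0.13 and -0.59 in KO. Between KO and WT adipose tissue, the direction of the type I median thus turned when KO adipose 3 or WT adipose 3 was left out.

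The direction of this difference between genotypes also turned between the numbered experiments. In experiment 2, KO minus WT adipose tissue had a median of -1.80 over the type I set, with 9 of 10 negative, and in experiment 3 of 2.19, with 10 of 10 positive. Ifit3 was at -0.88 in experiment 2 and 5.41 in experiment 3, Oasl2 at -2.72 and 3.33, and Ifit1 at -3.82 and 1.56. For the type I set, therefore, the difference between genotypes in adipose tissue did not hold within experiments. The gamma-type set had medians of -1.14 (12 of 12 negative) and -0.23 (7 of 12 negative), and the all-gene medians were -0.31 and -0.21. Gbp10, Gbp4, Gbp5, Gbp7, Gbp8, Igtp and Irgm1 were the 7 gamma-type genes lower in both experiments (58.3%, against 43.1% of all genes), and 0 of the 10 type I genes were. Over the 44 members 16 were lower in both (36.4%) and 6 higher in both (13.6%, against 13.1% of all genes). In spleen the gamma-type medians were -0.97 (12 of 12 negative) in experiment 2 and 0.056 (5 of 12 negative) in experiment 3, and the type I medians were -1.13 and 0.19. Over the 44 members 18 were lower in KO spleen in both experiments (40.9%, against 32.5% of all genes) and 2 higher in both (4.55%, against 15.3%). The 18 included 5 of the 12 gamma-type genes (Gbp2, Gbp8, Iigp1, Irgm1 and Irgm2), among them Iigp1 at -1.06 in experiment 2 and -0.68 in experiment 3. The spleen medians were further below 0 in experiment 2, the experiment whose KO libraries had Foxp3 at 7.4 TPM (adipose tissue) and 8.27 TPM (spleen). The 5 regulatory T cell markers summed to 1597 TPM in KO spleen 2 and 1778 TPM in KO spleen 3. Of these sums Tnfrsf18 made up 1234 and 1036 TPM. For the KO adipose libraries the marker sums were 1703 TPM (library 2) and 888 TPM (library 3), of which Tnfrsf18 made up 1352 and 558 TPM. The 4 B cell markers summed to 380 and 429 TPM in KO and WT spleen 2, against 80.8 and 79.9 TPM in KO and WT spleen 3. The part of cell content in the member values was not tested.

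**Figure D4:**
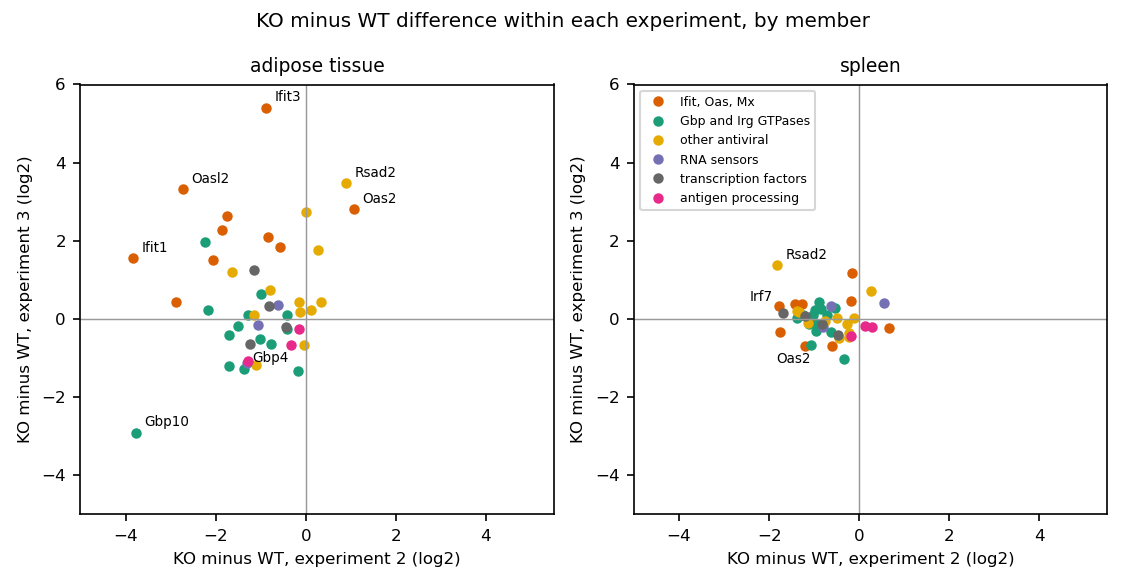
KO minus WT difference in log2(TPM + 1) of each member within experiment 2 (x axis) and experiment 3 (y axis), for adipose tissue and spleen, coloured by role. In adipose tissue 9 of 10 Ifit, Oas and Mx genes lie at upper left, negative in experiment 2 and positive in experiment 3, and Gbp10 lies at lower left, at -3.77 and -2.91. In spleen most members lie left of 0 and near 0 on the y axis.

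Beyond the members, 78 other genes of the pathway were followed, of which 77 had a row and 67 were tested, and by limma 0 passed in any of the 5 comparisons. An unadjusted p under 0.05 was reached by 5 of the 67 in KO against WT adipose tissue (6.97% of all genes) and by 0 in KO against WT spleen (0.478% of all genes). It was reached by 5 in WT adipose tissue against WT spleen (13% of all genes), by 12 in KO adipose tissue against KO spleen (12.9%) and by 1 for the interaction (3.06%). Fold changes were negative for 54 of the 67 in KO against WT adipose tissue, where 67.7% of all genes were, with a median of -0.38 against -0.27 over all genes. The count was 57 in KO against WT spleen, where 63.5% of all genes were negative, with a median of -0.34 against -0.12. Between tissues it was 27 in WT (34.5% of all genes), with a median of 0.22 against 0.32, and 31 in KO (41.4%), with a median of 0.09 against 0.16. Of the interferon genes, Ifna2, Ifna4, Ifnl2 and Ifnl3 were listed at 0 in every library, and Ifnb1 did not exceed 0.101 TPM. Ifng, which encodes interferon-gamma, was at 65.9 and 1.76 TPM in the KO libraries against 139.6 and 0.258 TPM in the WT adipose libraries, and at 64.5 and 12.3 TPM in the KO libraries against 6.19 and 9.95 TPM in the WT spleen libraries. In adipose tissue Ifng was thus high in both libraries of experiment 2 and low in both of experiment 3, whichever the genotype. Jak1, the kinase common to both receptors, was at 82.5 and 128 TPM in the KO libraries against 267 and 213 TPM in the WT adipose libraries (log2 fold change -1.21, SE 0.44, limma adjusted p = 0.593). It was lower in both KO than in both WT adipose libraries and did not pass.

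Ifi204, a cytosolic DNA sensor that myeloid cells express, was at 3.24 and 35.2 TPM in the KO libraries against 0.0950 and 0.240 TPM in the WT adipose libraries (log2 fold change 3.41, SE 0.91, limma adjusted p = 0.344). Ifitm3, a membrane protein that blocks virus entry, was at 206 and 3134 TPM in the KO adipose libraries against 23.1 and 25.2 TPM in the KO spleen libraries (5.0, SE 1.08, limma adjusted p = 0.0876). In WT it was at 482 and 187 TPM in adipose tissue, where the macrophage sums were 9.41 and 21.0 TPM, against 62.4 and 34.6 TPM in spleen (2.67, SE 1.08, limma adjusted p = 0.357). Ifitm3 thus lay higher in every adipose than in every spleen library. Both Ifi204 and Ifitm3 were highest in KO adipose 3, the library in which the macrophage and the fibroblast and mesothelium sums were highest. Their part in these values was not tested. Socs1, an inhibitor of interferon signalling, was at 283 and 404 TPM in the WT adipose libraries against 112 and 143 TPM in the WT spleen libraries (1.41, SE 0.37, limma adjusted p = 0.202), and at 271 and 201 TPM in the KO adipose libraries against 103 and 164 TPM in the KO spleen libraries. Socs1 was thus higher in every adipose library than in every spleen library. Between KO and WT spleen the smallest p of this list belonged to Ifi203, at 64.6 and 82.8 TPM in the KO libraries against 108 and 103 TPM in the WT libraries (-0.53, SE 0.30, limma adjusted p = 1).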

How the data were processed

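The series was deposited as 1 table of TPM for 8 libraries of sorted CD4+ CD25+ T cells. Per the labels' protocols, the SMARTer v4 ultra-low-input chemistry gave the cDNA and Nextera XT the libraries. The values were identified as TPM because each column the authors deposited sums to 1000000. The submitters' processing notes name mm9 as the build. The aligner, counter and annotation were not given in the sources used here. TPM keeps no depth, so no counting interval is given.

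Tested genes had to reach 1 TPM in 2 or more libraries. The test was limma 3.58.1 (R 4.3.3) with a variance trend, applied to log2(TPM + 1), a scale that understates changes of low genes. All 8 libraries entered 1 fit of 4 groups with 4 residual degrees of freedom and 5 contrasts, adjusted by the Benjamini-Hochberg method at 0.05. The fit was tested on simulated data. The members and lists were chosen with earlier results of these data known. Any member may be named, with all past the threshold or up to 8 in each direction of largest fold without overlap whose higher group averaged 5 TPM or more, and of the other pathway genes up to 4 per contrast with the smallest p. Ifng, the other interferon genes and the marker genes were named outside this rule, after their values were seen. Library numbers are called experiments in the file headers, and same-numbered libraries deviated together (r = 0.128 to 0.382 over the 6 pairs of groups), so they were taken as a possible pairing, tried as a block. Other pseudocounts, filters, scalings and left-out libraries were also tried. The genome used for sequences is GRCm38, not the build of the table, and served only for sequences and chromosomes.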

Additional observations from a re-analysis of the deposited data

Results flagged for a closer look

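Oas2, which encodes a 2-5A synthetase, differed in direction between tissues. It was at 1.13 and 12.7 TPM in the KO libraries against 0.00950 and 0.943 TPM in the WT adipose libraries, and at 0.372 and 0.784 TPM in the KO libraries against 2.16 and 1.90 TPM in the WT spleen libraries. Every KO library thus lay above WT in one tissue and below WT in the other, and the difference of the 2 log2 fold changes was 2.90 (SE 1.22). Its limma test did not pass (unadjusted p = 0.0441, adjusted p = 1), and 3.06% of all genes had an unadjusted p under 0.05 in that comparison. The share of all genes with such opposite directions was not counted. Apart from KO adipose 3, the library with the high macrophage markers, Oas2 was at 2.16 TPM or less in every library.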

How the results depend on the processing

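The main limits are 2 libraries a group, an unknown depth and libraries of unequal cell content. Between KO and WT adipose tissue, by limma, the count of members past the threshold was 0 (2 at an unadjusted p under 0.05), and 1 (Gbp10) without a trend in the variance. Leaving out 1 library gave 0 to 2, the 2 (Gbp10 and Oas2) without KO adipose 2, where the lone library left is assumed to vary like the other groups. In KO adipose tissue against KO spleen the count was 1 (Gbp10). It was 0 with a pseudocount of 5, without a filter on low values, with only the libraries compared and without both KO libraries of experiment 2, and 0 to 2 with 1 library left out. The 2 were again found without KO adipose 2. For KO against WT spleen, WT adipose tissue against WT spleen and the interaction the count was 0 under every alternative. The replicate block changed no count: it gave 0, 0, 0, 1 and 0 members past the threshold in the 5 comparisons. The type I minus gamma-type difference in medians ranged from -0.055 (without KO adipose 3) to 2.05 with 1 library left out in KO against WT adipose tissue, around 1.10. In KO adipose tissue against KO spleen it ranged from -1.06 (without KO adipose 3) to 1.14, around 0.14. The count of 12 negative gamma-type genes in KO against WT spleen was 6 without both KO libraries of experiment 2 and 6 to 12 with 1 library left out, a check added after the values were seen. Gbp7 in WT adipose tissue against WT spleen turned from 0.23 to -0.17 under quantile normalization. The cause of these shifts was not tested.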
